A study of Mus musculus with 2 samples.

Results

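Antisense RNA is transcribed from the strand opposite to an annotated gene. Known antisense transcripts include spliced long noncoding RNAs, unspliced RNAs from gene bodies and 3′ extensions of a neighbour that run into a gene from the other side. In libraries primed on poly(A), a stretch of adenines inside an RNA can also be primed, and a read can be given the wrong strand, so the letters at the ends and introns of such models are usually read beside their counts.

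The transcript models described here are those that the authors' annotation classes as antisense to known genes and that held at least 5 counts in a library. They were chosen by their counts. There were 806 such models in replicate 1 of 91308 models in all, and 925 in replicate 2 of 96944. Of these, 804 and 923 lay on mouse chromosomes and the remaining 2 in each library on spike-in RNAs. Names of new models are given library by library, so models were matched by overlap of at least 1 base on the same strand, which gave 1140 loci. At the threshold, 190 and 240 models held exactly 5 counts, and a further 290 and 347 models on chromosomes held 4 counts and were left outside.

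The study sequenced full-length RNA of the heart by long reads in male mice of strain B6CASTF1/J, hybrids of the B6 and CAST strains, at the age of 14 days. It holds 1 group, with no treatment named, and 2 libraries, replicate 1 and replicate 2, both made from total RNA with Lexogen set 4 and Ambion mix 1 spike-ins. A single donor label is shared by both libraries. Tissue samples are described as coming from 3 males, and whether these were pooled is not said. The spread between the libraries may therefore be partly technical. The totals were 1107678 counts in replicate 1 and 1110707 in replicate 2. Reference genes took 1059016 and 1064679 of them, and CPM values below are scaled to these reference-gene totals, so that a floor of 3 counts was 2.83 and 2.82 CPM. All 10 cardiomyocyte markers were detected and together took 4.47% and 4.33% of the counts on reference genes, against 0.693% and 0.667% for 7 fibroblast markers. The 7 endothelial markers took 0.107% in each library. Apart from these, the other marker lists differed more between the libraries. The 6 smooth muscle and pericyte markers took 0.0873% in replicate 1 and 0.0974% in replicate 2, and the 5 macrophage markers 0.0279% and 0.0390%. The 4 atrial markers took 0.487% in replicate 1 and 0.120% in replicate 2, the 5 red blood cell markers 1.73% and 1.28%, the 4 brown fat markers 0.0173% and 0.00949%, and the 4 thymus markers 0.00132% and 0.00704%. The part of these differences in the comparison of the libraries was not tested.

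All antisense models on chromosomes, including those under 5 counts, held 25956 counts in replicate 1 and 28403 in replicate 2. This was 2.39% (95% exact Clopper-Pearson interval 2.36 to 2.42) and 2.60% (2.57 to 2.63) of the antisense and reference-gene counts together. Intervals cover counting error only, because no molecular identifiers tell copies of a molecule apart. The 1140 loci held 15426 and 16457 of these counts, or 14566 and 15457 CPM in sum. A locus held a median of 12 counts over both libraries. Of the 1140 loci, 751 reached 10 summed counts, 287 reached 20, 88 reached 50 and 36 reached 100. The 8 highest loci held 28.6% of all locus counts. Within a locus 1 member model was the rule in 603 cases, 2 in 509 and more than 2 in 28, with 7 at most.

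The spike-ins give the same measure on RNAs of known strand. With counts on the annotated strand there were 48 spike-ins in replicate 1 and 40 in replicate 2, holding 19022 and 13891 counts, and none of them had an antisense count. Over these spike-ins a count of 0, with a limit set at 3 counts of the total, allows an antisense share of up to 0.0158% and 0.0216%. Over all spike-ins the antisense share was 0.979% in replicate 1 and 0.920% in replicate 2. All of the antisense spike-in counts came from 5 other spike-ins, which had no count on the annotated strand in either library. Whether these 5 are given on the reverse strand in the reference used by the authors was not tested. ERCC-00009 held 139 and 85 counts, ERCC-00116 held 42 and 39, and ERCC-00014, ERCC-00059 and ERCC-00099 held 4 counts or fewer in each library.

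The letters around the ends and introns of the models are shown first, because the loci differed in them. They were read on the strand of the antisense model from GENCODE M21 transcript sequences of the same assembly, which is possible only where a window lies within 1 annotated exon, and are those of the reference strain. Each window holds the last 10 bases of the leading model of a locus (its member with the highest count) and the 20 bases after its 3′ end. Capitals mark the longest run of A. The first 7 are the highest loci with an A-rich window (at least 12 A of the 20 bases after the end), each named by the annotated gene on the other strand.
Klhl31, chr9:77656656-77656685, minus strand: cccatccagaaaaaaggAAAAAAAAAAAAA
Sept2, chr1:93507842-93507871, minus strand: AAAAAAAAAAAAAccccaaccaaacaaaaa
2900097C17Rik, chr2:156391505-156391534, plus strand: cacaaaatgtAAAAAAAAAAAAAAAAAAAA
Pitpnc1, chr11:107211754-107211783, plus strand: acaccttaccAAAAAAAAAAAAAAAAgttt
Cavin1, chr11:100958465-100958494, plus strand: ccggtttgtttAAAAAAAAAAAAAAAAgcc
Actb, chr5:142903492-142903521, plus strand: gacaaaaccAAAAAAAAAAAAAAAcaaaac
Tacc1, chr8:25158024-25158053, plus strand: agattaaggcAAAAAAAAAAAAAAAAAAAA
The next 3 are loci among the 12 highest whose window was not A-rich.
Tmem250-ps, chr2:26138374-26138403, plus strand: ggtgggccctcacatgtccacAAAgaccat
Cdv3, chr9:103355304-103355333, plus strand: ttctttatccctaagggAAAAgaaatgtaa
Nfia, chr4:98113587-98113616, minus strand: atatctgggggcgggggcaggaatAAAggg

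In 412 loci the 20 bases after the 3′ end of the leading model could be read. They were A-rich in 182 of them, or 44.2% (95% exact interval 39.3 to 49.1), and all 20 bases were A in 50. The 20 bases before the 5′ end could be read in 391 loci and were A-rich in 6, or 1.53% (0.565 to 3.31). Of all windows of this length on the antisense strand of the 411 exons that were read, 3.51% were A-rich. The median was 9 A after the 3′ end and 5 A before the 5′ end, and the number of loci by A count after the 3′ end peaked at 4 and again at 20. Antisense models below 5 counts were A-rich after the 3′ end in 989 of 3192 readable cases, or 31.0%.

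**Figure D1:**
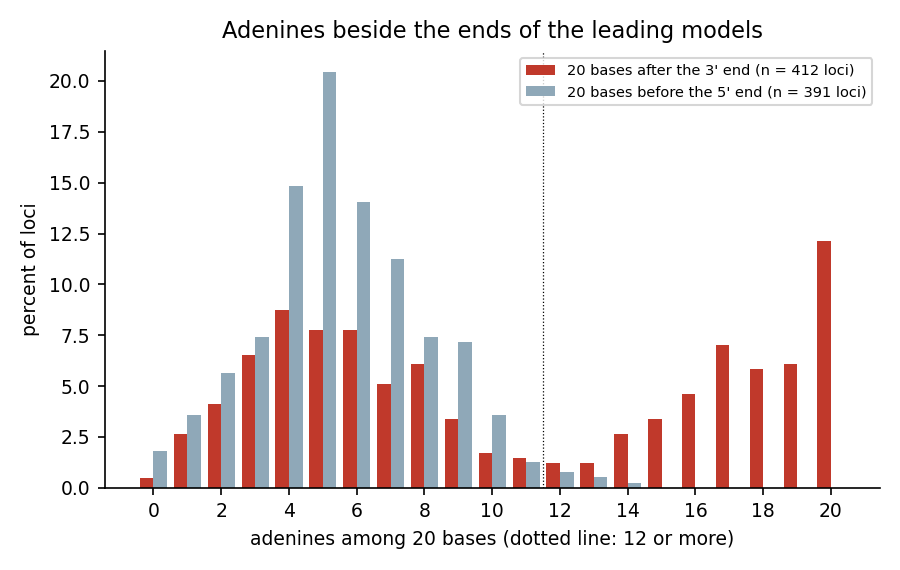
Percent of loci (vertical axis) by the number of adenines among 20 bases (horizontal axis), after the 3′ end (red, 412 loci) and before the 5′ end (grey, 391 loci) of the leading antisense model. The dotted line marks the limit of 12, which 44.2% of the windows after the 3′ end and 1.53% of those before the 5′ end reached.

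A poly(A) signal, here AATAAA or ATTAAA on the strand of the model anywhere in its last 50 bases, was present in 14 of 180 A-rich loci whose last bases could be read (7.78%) and in 14 of 136 loci that were not A-rich (10.3%). It was present in 6.77% of all windows of 50 bases on the antisense strand of the same exons, and in 8084 of 10739 reference transcripts of at least 5 counts, or 75.3%. The poly(A) signal is the hexamer that directs cleavage at most annotated 3′ ends, and a match here is a description of letters, not of a site in use. The 182 A-rich loci had a median of 17 summed counts, against 13 in the 230 that were not. Member models were present in both libraries in 118 (64.8%) of the A-rich loci and in 117 (50.9%) of the others. Membership depends on the counts, and the difference in these shares was not tested.

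The locus with the highest count lay at chr17:39843013-39846245 on the minus strand. It held 1500 counts in replicate 1 and 2003 in replicate 2, or 1649 ± 329 CPM (mean ± SD, n = 2). Its partner, the opposite-strand long noncoding gene Gm26917 (ENSMUSG00000097971.3), held 3 and 11 counts. The locus covered the 5′ end of Gm26917, lay wholly in its exons and began 108 bases after the 3′ end of CT010467.1, a ribosomal RNA gene annotated on the same strand (39846353 to 39848827), which itself held 0 counts in both libraries. Ribosomal RNA genes exist in many near-identical copies, so reads placed here are uncertain in origin. This locus alone took 9.72% and 12.2% of all locus counts.

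The loci opposite Klhl31, Sept2, Tmem250-ps and Nfia came among the next in count. Along Klhl31, a kelch protein gene of striated muscle, the locus (chr9:77656524-77660127, minus strand) held 552 and 449 counts (471 ± 70.4 CPM), and Klhl31 22 and 29. In the 3′ UTR of Sept2, a septin of the cytoskeleton, the locus (chr1:93507857-93509733, minus strand) held 439 and 499 counts, and Sept2 64 and 57. The antisense counts exceeded those of the partner in both libraries in both of these cases.

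Opposite the long noncoding gene Tmem250-ps, the locus chr2:26136814-26138383 on the plus strand held 453 and 405 counts, and the gene 7 and 4. Nfia, a transcription factor of the nuclear factor I family, had 4 loci. The highest (chr4:98111218-98112813, minus strand) held 390 and 405 counts, or 374 ± 8.58 CPM, and lay wholly in the 3′ UTR. A neighbouring one (chr4:98113607-98116951) held 122 and 80, and Nfia itself 33 and 35. Each single locus of this pair was above the gene in both libraries.

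The loci opposite 2900097C17Rik (203 and 214 counts) and Pitpnc1 (216 and 193 counts), a phosphatidylinositol transfer protein gene, also lay above their partners, which held 76 and 95 counts and 48 and 42 counts. At Cavin1, a coat protein gene of caveolae, the antisense locus and the gene were at like levels, with 121 and 116 counts antisense and 107 and 105 for the gene. The antisense share there was 53.1% (95% exact interval 46.4 to 59.7) and 52.5% (45.7 to 59.2), and both intervals include equal counts. At Gnb1, the beta subunit of trimeric G proteins, the antisense share was 35.7% and 29.7%, and at Actb, the cytoplasmic beta actin gene, 22.6% and 12.7%. Gm10874 held 0 counts in both libraries and its antisense locus 90 and 83. That locus and the gene share 1 base.

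**Figure D2:**
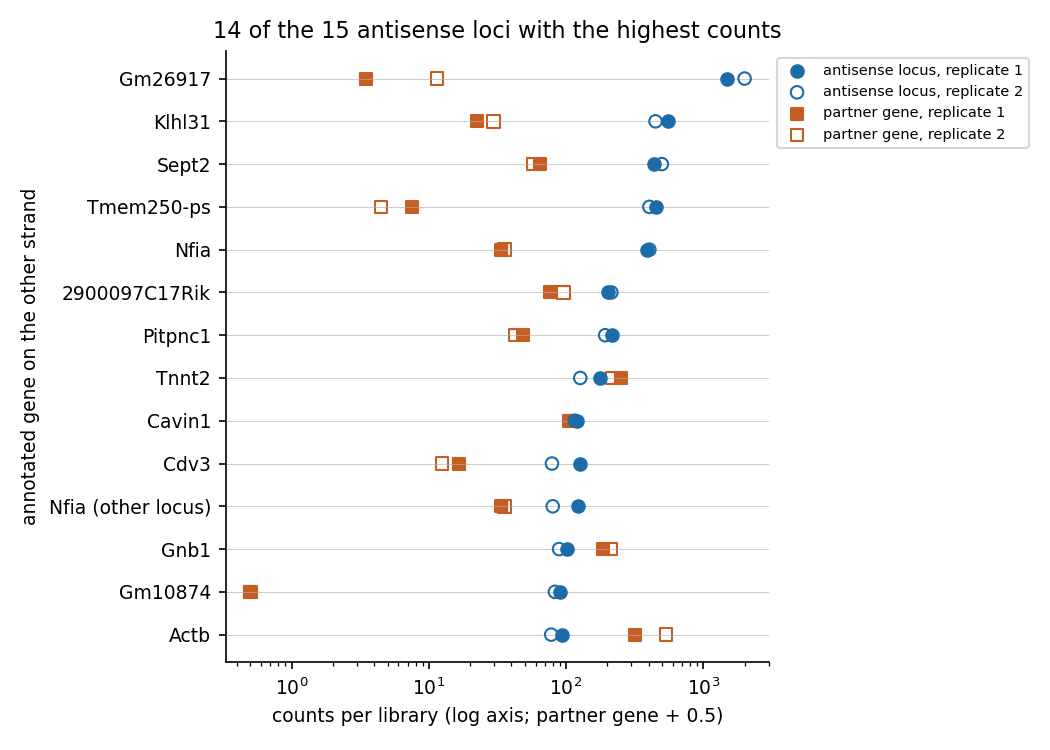
Counts per library (horizontal log axis) of 14 of the 15 antisense loci with the highest summed count (blue circles) and of the annotated genes on the other strand that name the rows (orange squares, with 0.5 added), filled for replicate 1 and open for replicate 2. In 11 of the 14 the antisense locus lay above the partner by summed counts, all but Tnnt2, Gnb1 and Actb. The loci were chosen by their counts and the partners were not.

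A long read counts once whatever the length of its transcript, so counts were not divided by length. Of the 1129 loci with an annotated partner, 243 (21.5%, 95% exact interval 19.2 to 24.0) held more summed counts than the partner gene, 185 of them in both libraries taken singly. The partner held at least 10 counts in 78 of the 243, and no counts at all in 45 of the 1129. Against annotated transcripts of the partner alone, leaving out its new models, 44.1% of the loci were higher. Among the 88 loci of at least 50 counts, all with a partner, 53 were above it. The loci were chosen by their counts and the partners were not, so these shares follow in part from the choice. The median antisense share of antisense and partner counts was 19.4%, with quartiles at 7.41% and 45.7%. Across the 1129 loci the log2 counts of locus and partner had a Pearson r of 0.04, a description of points that share libraries and, in genes with several loci, a partner.

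By the part of the partner that the leading model covered, 562 loci (49.3%) lay on exons without reaching an end of the gene, 409 (35.9%) in introns, 105 (9.21%) over the 3′ end and 53 (4.65%) over the 5′ end. A further 11 had no annotated gene opposite. The share of loci above their partner was 46.7% over 3′ ends, 37.7% over 5′ ends, 22.8% on exons and 11.2% in introns. The median antisense share ran in the same order, with 48.9%, 25.8%, 20.6% and 14.0%. The median partner held 22 summed counts at 3′ ends, 27 at 5′ ends, 58 on exons and 66 in introns, and the part of the partner's level in this order was not tested. Members were present in both libraries in 41.3% of the intron loci and 52.0% of the exon loci. Their median counts were 10 and 13, membership depends on the counts, and the difference in these shares was not tested. After the 3′ end, the window was A-rich in 45 of 83 readable loci over 3′ ends and in 136 of 325 on exons. The letters of intron loci could be read in 1 case.

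**Figure D3:**
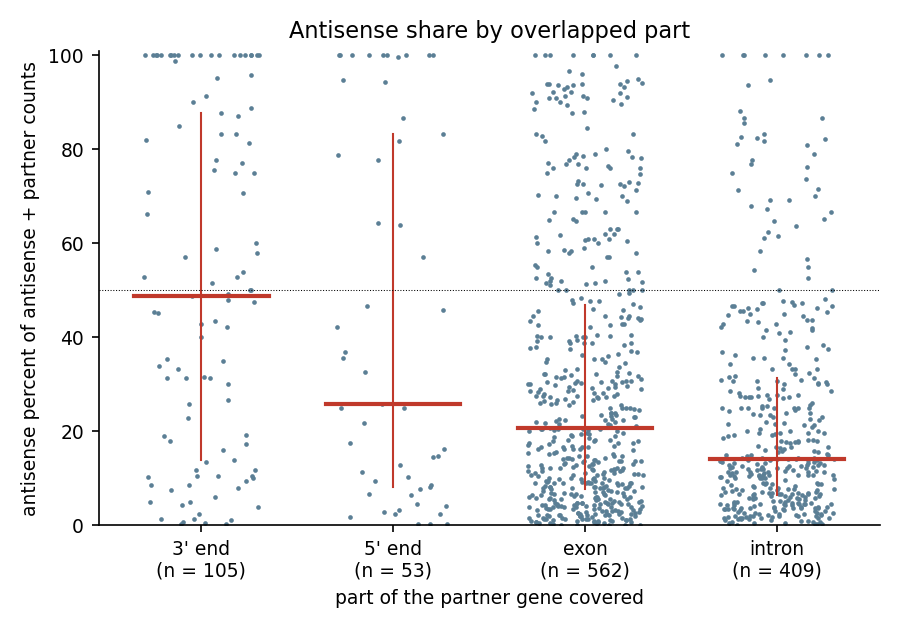
Antisense percent of antisense and partner counts over both libraries (vertical axis) for loci grouped by the part of the partner covered (horizontal axis, with the number of loci), 1 point per locus, with the median (red bar) and quartiles (red line). The medians are 48.9%, 25.8%, 20.6% and 14.0% from left to right.

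Among the 720 loci that shared at least 1 exonic base with the partner, most bases fell in the 3′ UTR in 293 (40.7%), in coding sequence in 182 (25.3%), in exons of noncoding transcripts in 150 (20.8%) and in the 5′ UTR in 95 (13.2%). The median overlap was 1293 bases in the 3′ UTR and 172.5 in coding sequence. The leading model lay wholly within partner exons in 291 loci. In 99 loci the overlap was 1 or 2 bases only, and if these and others under 10 bases are counted as intronic, 41.1% of loci are exonic and 44.1% intronic. An end of a member model fell exactly on an annotated exon edge of the opposite strand in 780 of 1727 models (45.2%), against 37.8% of antisense models under 5 counts and 16.1% of 168 models of new intergenic genes with at least 5 counts. Antisense models are classed by a gene on the other strand and intergenic ones are not, so the last contrast follows in part from the classes. Member models with an end on such an edge include those that begin at the last annotated base of the partner, as at Klhl31, Pitpnc1 and 2900097C17Rik. An antisense locus opposite Tnnt2, the cardiac troponin T gene (chr1:135849741-135850379, minus strand, 176 and 127 counts against 249 and 215 for the gene), shares 2 bases with an exon.

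The partner was protein-coding in 1066 loci (93.5%), a long intergenic noncoding RNA gene in 19 and of another type in the rest. The 1129 loci fell opposite 994 genes, of which 104 had more than 1 locus and 21 had 3 or more. Partner genes spanned a median of 48396 bases and held a median of 55 summed counts, against 19227 bases and 18 counts in the 15319 detected reference genes without a locus. Of the loci, 123 (10.8%) began within 5000 bases after the 3′ end of a same-strand reference gene, and they held 3175 and 3435 counts, the locus near CT010467.1 included. The new intergenic loci did so in 20 of 114 cases, or 17.5%.

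Ryr2, the calcium release channel of the sarcoplasmic reticulum, had 7 antisense loci, the most of any gene, with 122 and 166 counts in sum against 81 and 76 for Ryr2 itself. Of these, 5 were intronic and 2 touched an exon. The highest lay in an intron at chr13:12098167-12104521 on the plus strand, 1 exon of 6355 bases with 50 counts in replicate 1 and 88 in replicate 2. The other 6 held between 0 and 26 counts per library. Auts2 and Qk had 5 loci each. Qk, an RNA-binding protein that regulates splicing, held 265 and 300 counts, above the 118 and 97 of its antisense loci together.

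By groups of partner genes, 950 of 16269 detected reference genes (5.84%) and 922 of 13766 protein-coding ones (6.70%) had an antisense locus. Among genes of calcium handling it was 6 of 13 (Atp2a2, Cacna1c, Casq2, Ryr2, Slc8a1 and Trdn), with 205 and 257 antisense counts in 13 loci. Among sarcomere genes it was 8 of 31 (Actn2, Ldb3, Myh6, Myom1, Myoz2, Tnnt2, Tpm1 and Ttn), with 274 and 231 counts, 188 and 136 of them at Tnnt2. In the other groups a locus lay opposite 14 of 106 detected genes of oxidative phosphorylation, 3 of 17 of fatty acid oxidation (Cd36, Eci1 and Hadhb), 3 of 14 of glycolysis (Hk1, Pfkm and Pkm) and 1 of 51 of the extracellular matrix (Col4a1). The groups differ in the level and span of their genes. The median gene held 870 summed counts in the sarcomere list and 28 in the extracellular matrix list, against 20 over all detected genes.

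At the most abundant of these partners the antisense share was small. Opposite Myh6, the alpha myosin heavy chain, the locus held 7 and 5 counts against 22068 and 24632. Tpm1, alpha tropomyosin, had 2 loci with 8 and 9 and with 5 and 4 counts, against 18662 and 18858. Atp2a2, the calcium pump of the sarcoplasmic reticulum, had 4 and 7 counts antisense against 6410 and 7906. Opposite Trdn, triadin, the share was higher, with 58 and 57 counts antisense (11.4% and 11.4% of the antisense and gene counts) against 453 and 445, in a locus that shares 1 exonic base with the gene. Of the marker lists, 4 of 10 cardiomyocyte markers had an antisense locus (Myh6, Ryr2, Tnnt2 and Ttn). The 7 fibroblast, 5 macrophage, 5 red blood cell, 4 atrial, 4 thymus and 4 brown fat markers had none, and of the 7 endothelial ones Egfl7 (8 and 7 counts) and Pecam1 (7 and 8 counts) had 1 each. Of 6 smooth muscle and pericyte markers, Rgs5 had a locus with 39 and 37 counts against 388 and 459.

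Nearly all member models had a single exon, namely 1666 of 1727 or 96.5%, in both libraries alike (96.5% and 96.4%). Reference transcripts of at least 5 counts had a single exon in 4.42% of cases, models of new intergenic genes in 83.9% and antisense models under 5 counts in 91.8%. Member models had a median length of 2209 bases (quartiles 1345 and 3261), against 2386 for the reference transcripts. Among them 11 were 1 base long and another 31 were under 200 bases. The locus at Acot2, an acyl-CoA thioesterase, has a leading model of 1 base and held 74 and 28 counts.

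Multi-exon member models, 61 in all, were present in 38 loci, in 14 of them in both libraries. The models held 56 different introns, and none of these is annotated on the same strand. In 14 loci every intron was identical, base for base, to an intron annotated on the opposite strand, 21 introns in all. In the other 24 loci no intron was. No locus held both kinds. The 14 loci with mirrored introns held 308 and 299 counts, and the 24 loci with new introns held 268 and 359, single-exon models included. The multi-exon member models themselves held 203 and 189 counts in the mirrored loci and 120 and 181 in those with new introns.

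Introns removed by the main spliceosome begin with GT and end with AG on the transcribed strand, so the reverse complement of such an intron begins with CT and ends with AC. Where the first bases of a mirrored intron could be read on the antisense strand, they were CT in 4 of 4, and the last were AC in 4 of 4. A mirrored intron has by definition the edges of an annotated intron, so these letters follow from that match. Where the ends of a new intron could be read, the first bases were GT in 3 of 3 and the last AG in 4 of 4. These include both ends of the Neat1 intron, whose edges lie in repeated letters described below. The other ends of the 35 new introns could not be read. The windows below cover the last 10 bases of an exon and the first 10 of the intron, or the last 10 of the intron and the first 10 of the next exon, with the intron's outermost 2 bases in capitals. They show 1 mirrored intron opposite Nr2f2, a nuclear receptor, and both sides of 1 new exon opposite Ctcfl, a paralog of the insulator protein CTCF.
Nr2f2, first bases of the intron, chr7:70354922-70354941, plus strand: ccacaggcatCTggaagaaa
Nr2f2, last bases of the intron, chr7:70357753-70357772, plus strand: tccttcctACctgaggtgaa
Ctcfl, last bases of the intron before, chr2:173094618-173094637, plus strand: cttcccccAGaggccacagc
Ctcfl, first bases of the intron after, chr2:173094691-173094710, plus strand: tatctcgcagGTaaggccgt

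The mirrored loci with the highest counts lay opposite Ccdc80, Bcl2l1, Crebbp, Mbnl1 and Nr2f2. Crebbp, a histone acetyltransferase and coactivator, had the model with the most exons. Its 6 exons (chr16:4128444-4213997, plus strand) copied 5 introns of Crebbp, from its first exon on, over 85 kb. The locus held 46 and 53 counts, and Crebbp itself 10 and 10, so that 82.1% (95% exact interval 69.6 to 91.1) and 84.1% (72.7 to 92.1) of the counts were antisense. Multi-exon member models held 27 and 31 of the counts at Crebbp. At Ccdc80, a secreted matrix protein gene, the locus held 84 and 74 counts against 79 and 71 for the gene. At Bcl2l1, which encodes an inhibitor of apoptosis, it held 48 and 55 against 131 and 161. At Nr2f2 it held 21 and 26 against 22 and 31. The antisense counts were above those of the partner in 5 of the 14 mirrored loci and in 10 of the 24 with new introns.

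Of the loci with new introns, Cep85 (chr4:134159863-134164628, plus strand) had the highest count with 47 and 66, against 32 and 37 for the gene. Its leading model had a single exon, and its multi-exon member models held 15 and 26 of the counts. Ankrd1, a stress-responsive ankyrin repeat protein of the cardiac sarcomere and nucleus, had 3 new introns opposite it, at chr19:36114513-36119755 on the plus strand. That locus held 32 and 33 counts against 197 and 236. The locus opposite Ctcfl (chr2:173087623-173098161, plus strand) had models of up to 5 exons with 4 introns and held 16 and 15 counts, against 0 and 2 for Ctcfl, and it overlapped only 79 exonic bases of the gene. At Neat1, a nuclear long noncoding RNA, the new intron was 59 bases long, and a run of 59 letters across its first edge recurs 58 bases further on across its last edge. The locus there held 24 and 35 counts against 23 and 15, and the member models with the intron held 5 and 7 of them.

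**Figure D4:**
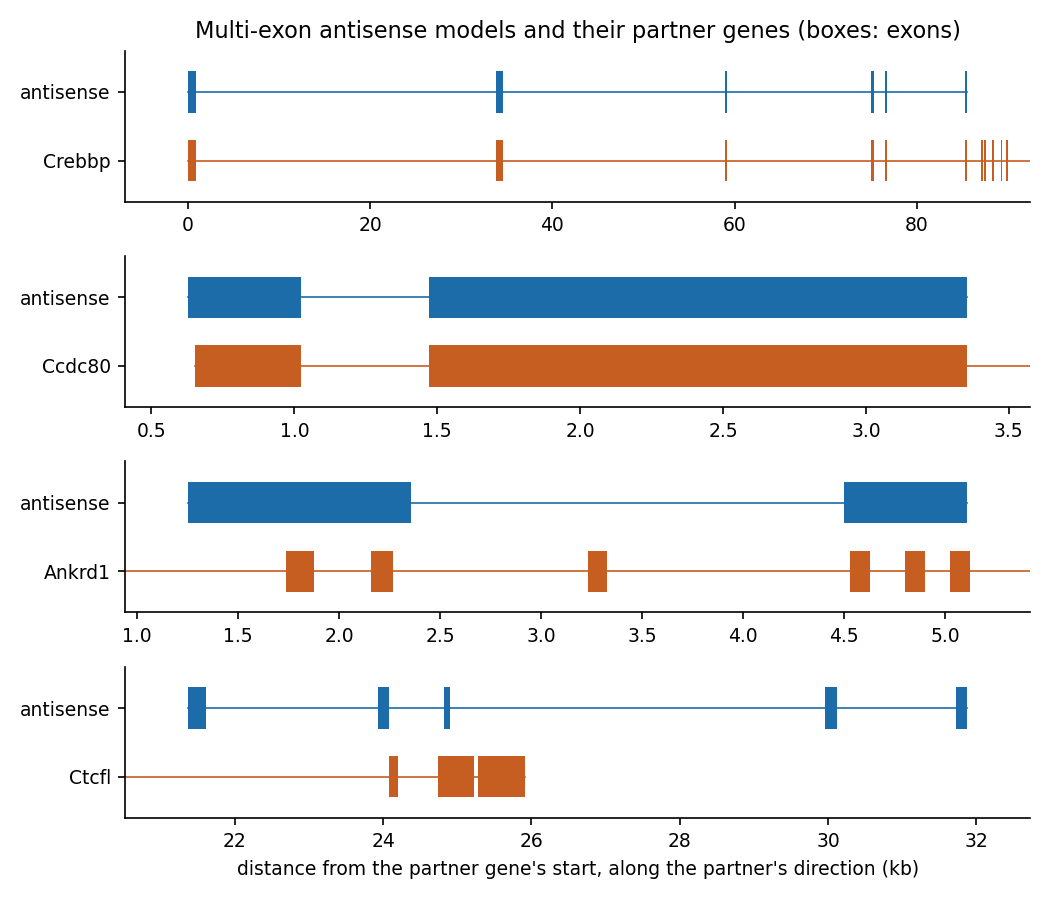
Exons (boxes) of the multi-exon antisense model with the most counts at 4 loci (blue) and of an annotated transcript of the gene on the other strand (orange), by distance from the start of the partner gene in kb (horizontal axis, along the direction of the partner). At Crebbp and Ccdc80 the introns of both tracks have the same edges, and at Ankrd1 and Ctcfl they do not.

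A library's counts at loci chosen by a member in the other library were not used by that choice. The bounds of the loci, however, were joined from member models of both libraries. Of the 780 loci with a member in replicate 1, 754 (96.7%) had at least 1 antisense count in replicate 2 and 551 (70.6%) had at least 5. Of the 897 loci with a member in replicate 2, 869 (96.9%) had counts in replicate 1 and 551 (61.4%) at least 5. The values that follow rest on the counts that chose the members and are descriptions. Member models were present in both libraries in 537 of the 1140 loci. Loci with 0 counts numbered 28 in replicate 1 and 26 in replicate 2. Across the 751 loci tested, log2(CPM + 1) in the libraries had a Pearson r of 0.73, a description of loci that share their libraries.

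In the exact conditional binomial test of the counts against the library totals, which compares these libraries and not conditions and holds counting error only, 360 of 10991 features tested (reference genes, antisense loci and intergenic loci) passed an adjusted p of 0.05, or 3.28%. Of the 751 antisense loci with at least 10 summed counts, 19 passed (2.53%), 11 higher in replicate 1 and 8 higher in replicate 2. Of these 19, 10 had a member model in 1 library only and passed the minimum of 5 counts through that library alone, so a difference at them follows in part from the choice, and nothing is read from their count. Among the 537 tested loci with members in both libraries, 9 passed (1.68%). The choice asks for at least 5 counts in each library there, so this share is not comparable with that of all features. The median log2 ratio of replicate 1 over replicate 2, on CPM plus 1, was -0.10 over the 751 antisense loci tested and -0.08 over all features. It lay within 1 of 0 in 636 loci (84.7%). With the dispersion between the libraries taken into account (edgeR's exact test with a common dispersion, estimated with both libraries as 1 group), 31 of the 10991 features passed, or 0.282%. Among them were 4 antisense loci, those opposite Lgals4, Atcayos, AC161438.1 and BC024978, each at 0 in a library. These 4 are members only through the library where they are high, so nothing is read from their calls. None of the 11 called loci with counts in both libraries passed edgeR's exact test.

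Of the 19 loci, 8 had no count in one of the libraries. They are members only through the other library, so their counts are a description and nothing is read from their calls. The locus over the 5′ end of Lgals4, a galectin gene (chr7:28833145-28834156, minus strand), held 0 counts in replicate 1 and 26 in replicate 2. Opposite Atcayos (chr10:81195082-81197576, minus strand) the locus held 21 and 0 counts, and Atcayos itself held 112 and 44. The locus began 594 bases after the 3′ end of Nmrk2, a nicotinamide riboside kinase gene on its own strand, which held 25 and 67 counts. The locus opposite BC024978 held 15 and 0 counts, and that opposite AC161438.1 held 0 and 18.

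Among loci with members in both libraries, that near the ribosomal RNA gene was lower in replicate 1 (log2 ratio -0.41, adjusted p = 2.3e-14 in the exact binomial test). Msrb3, a methionine sulfoxide reductase gene, had a locus with 106 and 54 counts (log2 ratio 0.97, adjusted p = 0.0022 in the same exact test), the gene itself 85 and 78. The locus at Acot2 (74 and 28 counts, log2 ratio 1.38), that at Ptp4a2 (53 and 23, log2 ratio 1.18), that at Rab31 (30 and 10), that at Cdv3 (126 and 79, log2 ratio 0.67) and that at Klhl31 (log2 ratio 0.30) were also higher in replicate 1. Ppargc1a, a coactivator that drives mitochondrial biogenesis, had an intronic locus with 13 and 36 counts (log2 ratio -1.39), lower in replicate 1, and Ppargc1a itself held 31 and 55. A second locus over a coding exon of Ppargc1a, with a member in replicate 2 only, held 2 and 17 counts. The highest Ryr2 locus (50 and 88 counts, log2 ratio -0.79) was also lower in replicate 1. With TMM scaling the call was lost at Ryr2 (adjusted p = 0.108) and at the intronic Ppargc1a locus (adjusted p = 0.0640), both from the exact binomial test. With no minimum count it was lost at these and at Klhl31, Cdv3 and Rab31. The leading models of the 11 loci higher in replicate 1 had a median length of 855 bases, against 2262 over all tested loci. Those of the 8 higher in replicate 2 had a median of 2985 bases. Of these loci, 5 and 3 were at 0 in the other library. Their direction and their leading model both come from the library that chose them. Nothing is read from these lengths, and the part of read length in the calls was not tested.

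**Figure D5:**
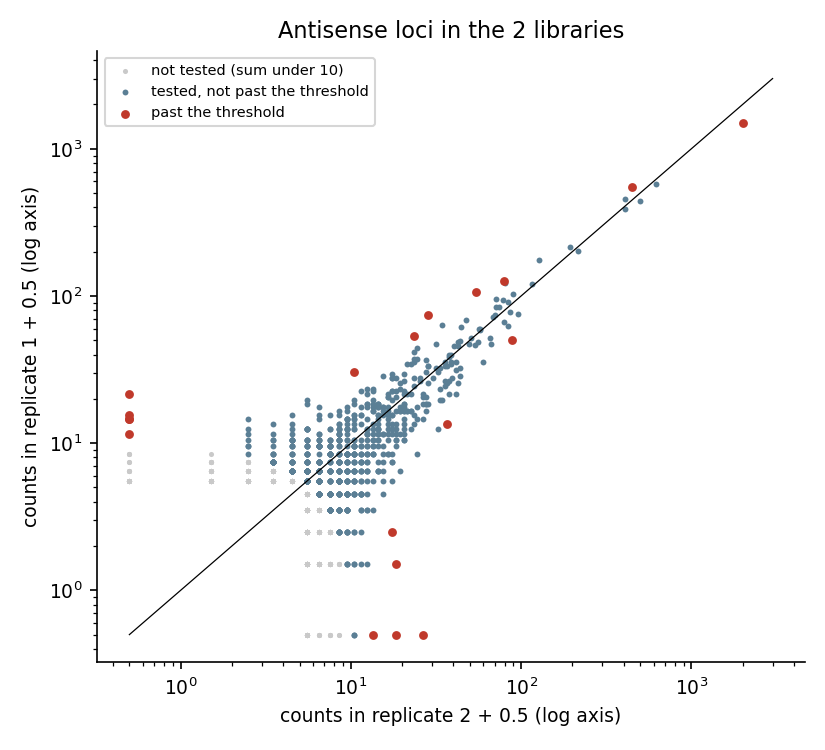
Counts of each of the 1140 antisense loci in replicate 1 (vertical log axis) and replicate 2 (horizontal log axis), with 0.5 added, and the line of equal counts. The 19 loci past the threshold of the exact binomial test are red, the other tested loci blue and the loci under 10 summed counts grey.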

How the data were processed

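Both libraries were deposited by the authors as whole read counts per transcript model without normalization, with an annotation of mm10 that holds GENCODE M21 genes and new TALON models, per the file headers. Neither the aligner nor the priming, the filters on models or the sequencer is stated in the labels or headers used here. The members and lists were chosen with earlier results of these data known.

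Counts of all antisense models that overlap a locus were summed. The partner is the opposite-strand reference gene that shares most exonic bases with the leading model, and it was also the authors' own in 1087 loci. The bounds of deposited gene rows differed from those of their transcripts in 15996 genes, so bounds were taken from the transcripts, which match GENCODE M21 in all 55536 genes. Loci of at least 10 summed counts were tested, together with reference genes and intergenic loci, with an exact conditional binomial test, two-sided (scipy 1.17.1), and Benjamini-Hochberg adjustment, after a check on simulated data. Shares have exact Clopper-Pearson intervals at 95%, and the limit at 0 counts is 3 counts of the total. edgeR 4.0.16 and DESeq2 1.42.0 gave alternative scalings and edgeR's exact test. Letters came from transcripts, since no genome was used, a choice made after the data were seen. Of the 15 highest loci, 1 is not reported here. By rule, the 15 highest loci, up to 10 called per direction, up to 10 with introns, 3 per overlapped part and those opposite listed genes could be named. Auts2, Qk and Tacc1 were chosen after their values were seen.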

Additional observations from a re-analysis of the deposited data

How the results depend on the processing

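No paired analysis was possible because the series has 1 group. With member models of at least 3 or 10 counts in place of 5 there were 2482 or 378 loci, and without either replicate between 782 and 900, against 1140. Loci with members in both libraries made up 42.7% or 56.9% at those minimums and 34.5% with models joined by reciprocal overlap of 50%, against 47.1%. At a minimum of 10 counts, 57.9% of loci lay on exons, 24.6% in introns and 11.9% over the 3′ end. With at least 10 exonic bases asked for, a setting chosen after seeing the data, 41.1% were exonic and 44.1% intronic. Without either replicate the intronic share lay between 31.8% and 36.6%. Against annotated transcripts of the partner only, 44.1% of loci were above it, against 21.5%. Of the loci tested between the libraries, 11 were called higher in replicate 1 and 8 in replicate 2. With a summed count of at least 20 these were 7 and 4, and with the counts of member models only 28 and 21. With edgeR's exact test they were 2 and 2. All of these were at 0 in the library that did not choose them, so nothing is read from their number. At an unadjusted p under 0.05, edgeR's exact test held 47 loci, against 64 in the exact binomial test. Counts of member models only leave a locus with members in 1 library without counts in the other library. The difference at such a locus follows from the choice, and nothing is read from the number of calls at that setting (588 loci tested). TMM scaling and DESeq2 size factors each gave 14 and 6, and 17 of the 19 main calls were called under each. The lost calls were Ryr2 (adjusted p in the exact binomial test 0.108 under each) and the intronic Ppargc1a locus (0.0640 and 0.0636). Loci called in addition included Tnnt2 (adjusted p in the exact binomial test 0.0295 and 0.0296) and the lower of the described Nfia loci (0.0260 and 0.0261). With no minimum count 8 and 6 were called, 14 of the 19, and Ryr2 (0.0761), Ppargc1a (0.0704), Klhl31 (0.0522), Cdv3 (0.0546) and Rab31 (0.0705) were lost. Apart from the setting of member models only, the causes of these moves were not tested. The shares of single-exon models and of A-rich windows (46.4% with 10 bases, 42.2% with 30) moved by less than their intervals. Of 79 named loci tested, none changed direction past the threshold under 8 alternatives. Below 10 summed counts, which 389 loci hold, a difference between the libraries was not tested.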

Other observations

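Of the 11 loci with no annotated gene opposite, the highest was a locus of 3 exons at chr3:115637146-115641532 on the minus strand, with 13 and 8 counts. In the RefSeq table of the GRCm38.p6 build, the start of Gm40124 lies within 200 bases of it on the same strand. Among all antisense loci the same held for 4 more, near the starts of Gm41507, Gm29998, Stk35os1 and Gm38396. None of the 5 symbols is among the GENCODE M21 names. The loci near Gm41507, Gm29998 and Stk35os1 lay opposite Gm41505, Rnls and Stk35, and that near Gm38396 had no annotated gene opposite. In the order of the starts, the 4 loci held 4 and 7, 8 and 0, 5 and 2, and 0 and 5 counts. The mitochondrial genome held 5 antisense loci with 28 and 23 counts in all.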
